A study of Homo sapiens with 6 samples.

Results

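The 60 genes described here lie on the long arm of human chromosome 6, in bands 6q24 to 6q27, from HIVEP2 at 142751467 to PDCD2 at 170584692 (hg38). They are 60 of the 18061 genes tested and of the 56832 rows of the count table, and were matched by symbol from a fixed list. The stretch was picked because most of its genes were higher in SMARCA3 knockout than in wild-type HEK293T cells, so the difference between knockout and wild-type of these genes is given as a description, with no test. HEK293T cells descend from human embryonic kidney cells transformed with adenovirus DNA, with the SV40 large T antigen added. The samples were 3 libraries of SMARCA3 knockout 293T cells (KO) and 3 of unmodified 293T cells (WT), all grown in DMEM with fetal bovine serum, with no other allele or agent named in the labels. The labels do not say how the knockout was made, whether it is a single clone, or whether replicates were separate cultures. P-values here therefore reflect only how much these libraries vary, and that variation may be technical.

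A chromosome band is a unit of position, not of function, and the genes of 6q24 to 6q27 serve unrelated processes. Among them are the TATA-binding protein TBP, which positions RNA polymerases at promoters, the proteasome subunit PSMB1, the chaperonin subunit TCP1, the Hippo kinase LATS1 and the muscle membrane protein utrophin (UTRN). What neighbours can share is a promoter region, when genes start close together and are transcribed apart from each other.

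Total counts ran from 33125811 to 36804337 in KO libraries and from 38199454 to 41593655 in WT libraries. HLTF, which encodes SMARCA3, was measured at 141, 139.9 and 149 CPM (counts scaled by TMM to 1000000 counts of the tested genes) in KO replicates 1 to 3, against 215, 191 and 195 CPM in WT replicates 1 to 3, giving a log2 fold change of -0.48 with an SE of 0.05 and an edgeR adjusted p of 4.65e-05. Its mRNA was thus lower but present in every KO library, and counts per gene do not show whether its protein was lost. Around WWTR1, near HLTF on chromosome 3, the median log2 fold change of the 20 nearest expressed genes on each side was -0.51. Whether the fall of HLTF goes beyond that of its surroundings was not tested. Of the marker genes used to check the line, the neurofilament gene NEFL was at 66.5 to 69.0 CPM in KO libraries and 72.9 to 73.8 CPM in WT libraries. The kidney factor PAX8 and the leukocyte gene PTPRC stayed at or under 0.0770 CPM in all 6 libraries. Some other markers differed between the groups, among them the keratin gene KRT18 at 13.3 to 14.4 CPM in KO and 27.7 to 32.7 CPM in WT, the kidney factor EYA1 at 3.50 to 3.94 CPM in KO and 12.5 to 15.4 CPM in WT, and the neuronal gene STMN2 at 16.1 to 18.5 CPM in KO and 0.699 to 0.997 CPM in WT. Their part in the results below was not tested. In bulk RNA, fewer cells expressing a gene and less RNA of it per cell cannot be told apart, and DNA copy number was not measured.

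Pairs of members whose starts face away from each other across a short gap were alike in some cases and unlike in others, as given below. For 2 such pairs the gap between RefSeq starts is printed here on the plus strand of GRCh38.p14. SERAC1, a phospholipid remodelling protein of mitochondria and endoplasmic reticulum contacts, is read leftward and GTF2H5, the smallest subunit of the transcription and repair factor TFIIH, rightward from the 87 bases at chr6:158168263-158168349. ADAT2, the catalytic subunit of a tRNA adenosine deaminase, and PEX3, a peroxisome biogenesis factor, start on either side of the 109 bases at chr6:143450696-143450804. Capitals would mark any of the 8 promoter motifs searched, and these gaps hold 0 of them.
SERAC1 to GTF2H5: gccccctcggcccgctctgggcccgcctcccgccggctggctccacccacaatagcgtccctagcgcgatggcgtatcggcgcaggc
ADAT2 to PEX3: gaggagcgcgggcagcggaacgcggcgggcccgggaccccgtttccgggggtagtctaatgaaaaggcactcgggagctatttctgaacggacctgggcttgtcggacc

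For contrast, the 250 bases before the RefSeq start are printed for the members with the highest and the lowest log2 fold change among those whose RefSeq and GENCODE starts lie within 50 bases of each other. CNKSR3, a scaffold of epithelial sodium transport signalling, is on the minus strand at chr6:154510686-154510935, and AIG1, a hydrolase of fatty acid esters of hydroxy fatty acids, on the plus strand at chr6:143060213-143060462. Each is written 5′ to 3′ along its own gene, and capitals mark the GC box GGGCGG on either strand.
CNKSR3: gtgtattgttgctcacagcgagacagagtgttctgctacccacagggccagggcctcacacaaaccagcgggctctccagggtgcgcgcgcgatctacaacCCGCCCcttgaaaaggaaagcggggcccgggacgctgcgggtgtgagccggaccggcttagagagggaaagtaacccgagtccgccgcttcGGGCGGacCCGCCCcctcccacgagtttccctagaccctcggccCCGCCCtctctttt
AIG1: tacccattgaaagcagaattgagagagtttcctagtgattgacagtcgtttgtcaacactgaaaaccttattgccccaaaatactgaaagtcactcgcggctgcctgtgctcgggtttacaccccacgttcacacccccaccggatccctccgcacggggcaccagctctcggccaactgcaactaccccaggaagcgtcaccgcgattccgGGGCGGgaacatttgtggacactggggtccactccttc

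The GC box was in both windows, although CNKSR3 was higher in KO libraries and AIG1 lower. Over the members, 55 of 60 had a RefSeq promoter window of 300 bases (250 before the start and 50 after it), and 44 of these 55 (80.0%) held GGGCGG, against 44.95% of all 35116 windows in the RefSeq table, which include non-coding genes. The CCAAT box (CCAAT) was in 30.9% of member windows and 34.6% of all windows, and the TATA box (TATAAA) in 7.27% and 11.5%. The E-box CACGTG was in 9.09% of member windows and 7.26% of all, the NRF1 core GCGCATGC in 7.27% and 3.05%, the ETS motif CCGGAAGT in 7.27% and 4.14% and the YY1 core AAGATGGC in 1.82% and 2.89%. The cAMP response element TGACGTCA was in 0 member windows and 1.85% of all. Both strands were searched and these motifs do not contain each other. Median GC content was 69.0% in member windows and 58.7% in all windows. All members were expressed and tested genes, while the windows of the whole table were not chosen by expression. Windows of other expressed genes were not compared, so these differences are not read as a trait of the stretch.

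As a whole the stretch was modestly higher in the knockout. The members summed to 5853, 5966 and 5959 CPM in KO replicates 1 to 3, against 5179, 4974 and 5006 CPM in WT replicates 1 to 3, so all KO sums lay above all WT sums (5926 ± 63.3 CPM in KO and 5053 ± 110.3 CPM in WT, SD, n = 3 each). They made up 0.585% to 0.597% of the counts of tested genes in KO libraries and 0.500% to 0.517% in WT libraries. The median member had a log2 fold change of 0.26, or 1.20-fold, with quartiles of 0.17 and 0.36, beside a median of 0.00 over all 18061 genes tested. Of the 60 members, 46 were called higher (adjusted p under 0.05 in edgeR), 4 lower and 10 not called. Over all tested genes 14.0% were called higher and 17.7% lower, and since the members were chosen on this contrast nothing is read from the difference. In 47 members every KO library lay above every WT library, which held for 21.2% of all tested genes, in 4 every KO library lay below (24.4% of all tested genes), and in 9 the ranges overlapped.

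**Figure D1:**
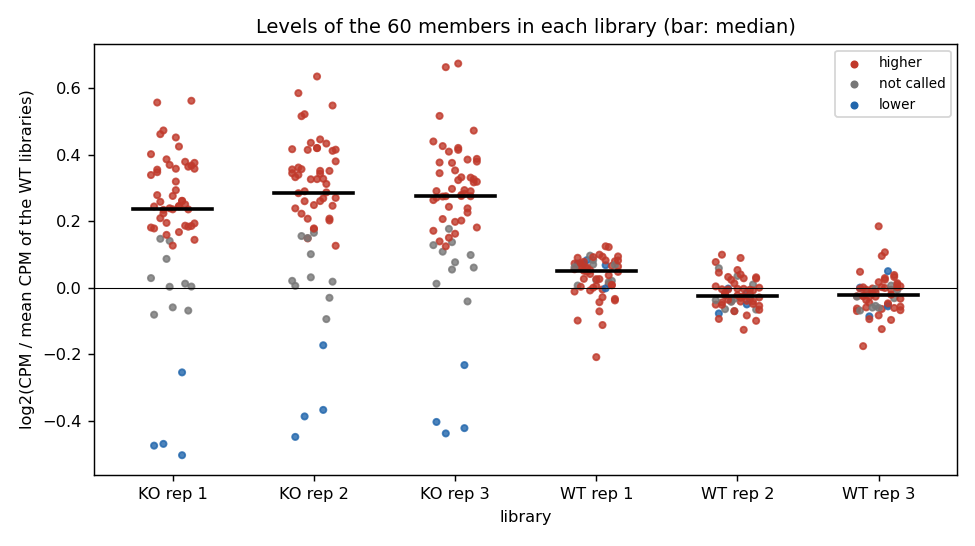
Each point is 1 of the 60 members in 1 library, as log2 of its CPM over its mean CPM in the 3 WT libraries, coloured by its call, and the bar is the median. Medians were 0.24, 0.29 and 0.28 in KO replicates 1 to 3 and 0.05, -0.02 and -0.02 in WT replicates 1 to 3. The 4 members called lower are the lowest points in each KO library, with SYNJ2 nearest to the other members.

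The KO libraries were alike in this, with 53, 54 and 55 members above their WT mean in KO replicates 1 to 3. Among WT libraries, replicate 1 stood slightly above the others, with 48 members above the WT mean, against 17 in replicate 2 and 18 in replicate 3. Without WT replicate 1 the members' median log2 fold change was 0.30 and 49 were called higher.

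The SD of the log2 fold change among members was 0.22, while the median SE of a single member was 0.05. Within 2 SE of the members' median lay 32 of 60, and 14 lay further above and 14 further below. The range ran from -0.44 for AIG1 to 0.59 for PLEKHG1. Along the chromosome, the 6 highest and the 6 lowest members all lay from AIG1 to TULP4, with none from TMEM181 to PDCD2.

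**Figure D2:**
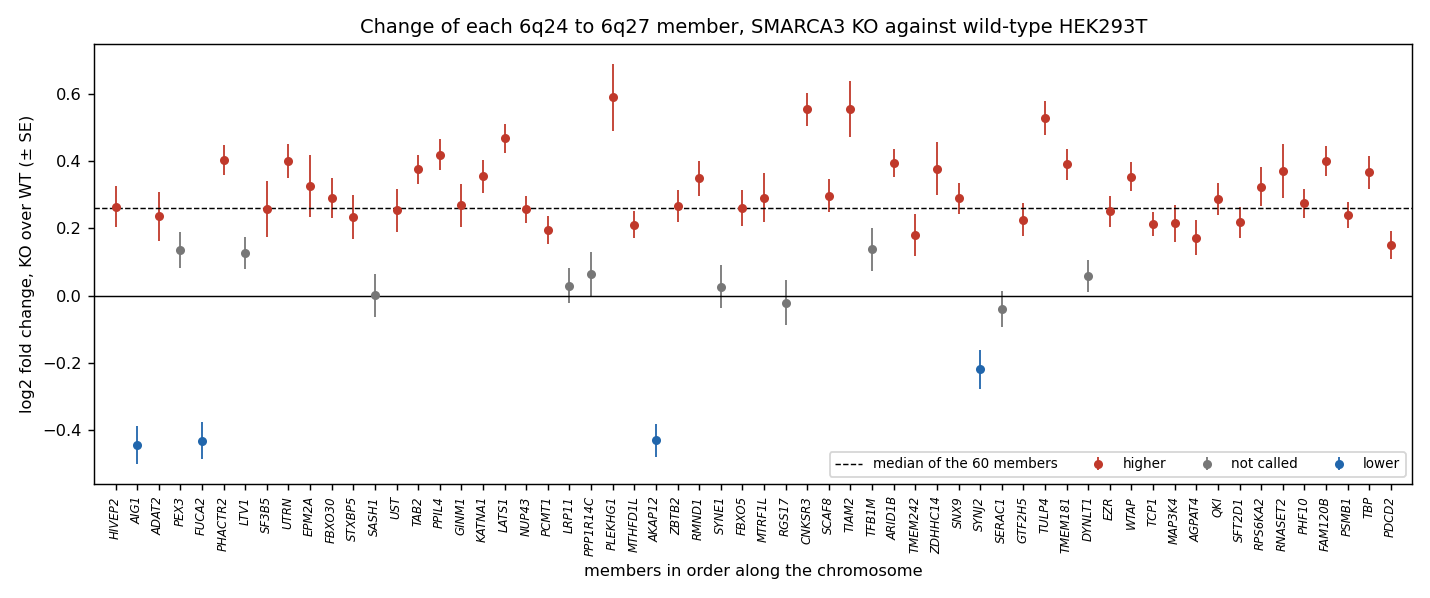
The log2 fold change of each member, KO over WT with its SE, in order along the chromosome from HIVEP2 to PDCD2, with calls in colour and the median of 0.26 as a dashed line. Of the 60 members, 41 lie between 0.15 and 0.45, those called lower lie at -0.22 or below, and the last 12, from TCP1 on, lie between 0.15 and 0.40.

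In sets of 12 along the chromosome, the median log2 fold change was 0.25 from HIVEP2 to STXBP5, 0.26 from SASH1 to PLEKHG1, 0.26 from MTHFD1L to TFB1M, 0.27 from ARID1B to WTAP and 0.26 from TCP1 to PDCD2. The medians were thus nearly level, while the spread differed. The SD was 0.29 in the first set and 0.08 in the last, where 12 of 12 members were called higher, with values of 0.15 to 0.40. Across the 60 members, which share the same libraries, the log2 fold change was described against wild-type level (Pearson r = -0.12, Spearman correlation -0.05, log2 CPM), exon length (Pearson 0.10, Spearman 0.22) or position (Pearson 0.19, Spearman 0.09). The 20 members of lowest, middle and highest wild-type level had medians of 0.26, 0.25 and 0.26.

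The highest log2 fold changes included 2 activators of small GTPases, a scaffold and a kinase. PLEKHG1, a guanine nucleotide exchange factor, measured 6.96, 7.90 and 8.12 CPM in KO libraries against 5.18, 5.41 and 4.67 CPM in WT libraries, a log2 fold change of 0.59 (SE 0.10). TIAM2, an exchange factor of the GTPase Rac, measured 11.7, 12.1 and 13.4 CPM in KO against 8.80, 8.65 and 7.92 CPM in WT (0.55, SE 0.08). Both were among the members of lowest level, and their ranges did not overlap between groups. CNKSR3 measured 49.5, 50.5 and 48.2 CPM in KO against 33.7, 33.6 and 33.7 CPM in WT, a log2 fold change of 0.55 (SE 0.05) with almost no spread among WT libraries.

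TULP4, a tubby-like protein with a SOCS box, measured 58.1, 57.5 and 54.6 CPM in KO against 38.3, 40.1 and 39.6 CPM in WT (log2 fold change 0.53, SE 0.05). LATS1, the kinase that phosphorylates the Hippo effectors YAP1 and TAZ, measured 146, 151 and 142 CPM in KO against 109.6, 105 and 103 CPM in WT (0.47, SE 0.04). PPIL4, a peptidyl-prolyl isomerase of the cyclophilin family with an RNA-binding domain, measured 117, 118 and 120.1 CPM in KO against 93.1, 85.4 and 87.0 CPM in WT (0.42, SE 0.05). In each of these 3 genes the lowest KO library was above the highest WT library.

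**Figure D3:**
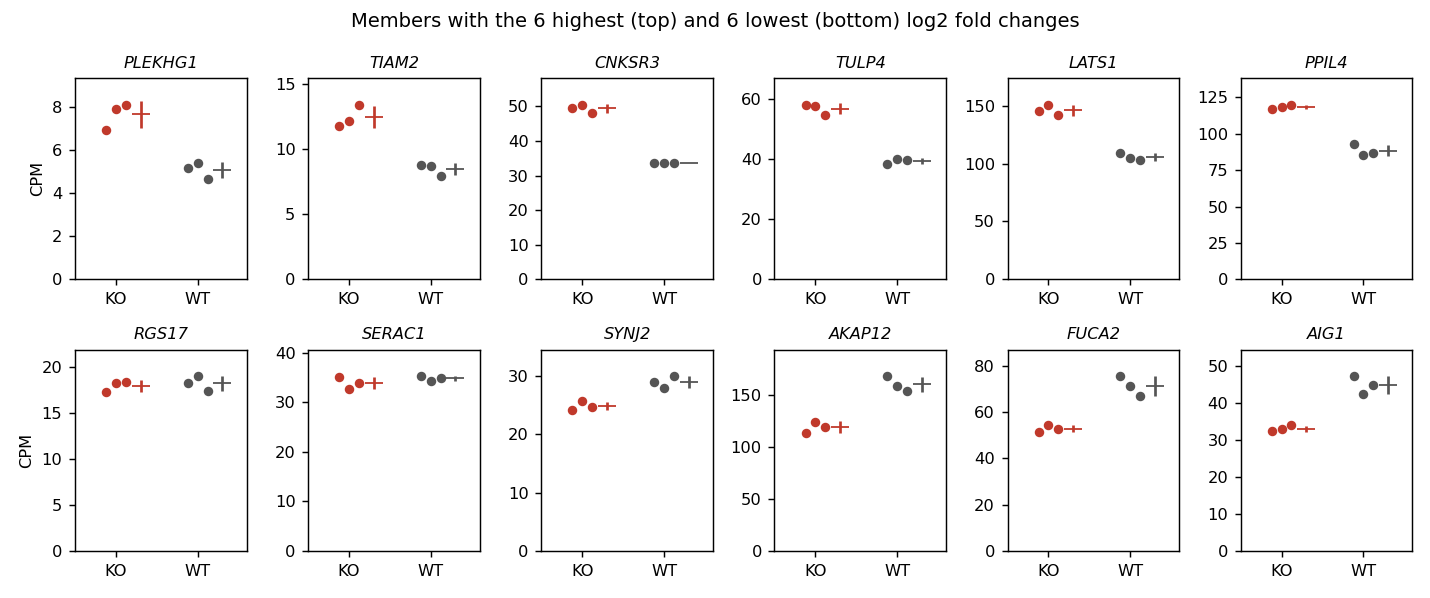
CPM in each library (points) with the mean and SD of 3 libraries beside them, KO left of WT, for the members with the 6 highest log2 fold changes (top) and the 6 lowest (bottom), each panel from 0. The upper panels and those of SYNJ2, AKAP12, FUCA2 and AIG1 show no overlap between groups, while RGS17 and SERAC1 overlap.

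Against the trend, 4 members were called lower, and the next members on either side of each were not. AIG1 measured 32.3, 32.9 and 33.9 CPM in KO libraries against 47.2, 42.5 and 44.9 CPM in WT libraries, a log2 fold change of -0.44 (SE 0.06). It lies between HIVEP2, a zinc finger transcription factor (0.26), and ADAT2 (0.24). FUCA2, a secreted fucosidase, measured 51.4, 54.4 and 52.5 CPM in KO against 75.4, 71.1 and 67.1 CPM in WT (-0.43, SE 0.05). Its neighbours were PEX3 (0.14, not called) and PHACTR2, a regulator of actin and protein phosphatase 1 (0.40).

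AKAP12, a scaffold that anchors protein kinases A and C, measured 113, 124 and 119 CPM in KO against 168, 158 and 154 CPM in WT (log2 fold change -0.43, SE 0.05). It stands between MTHFD1L, the mitochondrial formate-producing folate enzyme (0.21), and the zinc finger repressor ZBTB2 (0.27). SYNJ2, an inositol polyphosphate phosphatase of membrane traffic, measured 24.2, 25.6 and 24.6 CPM in KO against 28.9, 27.9 and 29.9 CPM in WT (-0.22, SE 0.06), between the sorting nexin SNX9 (0.29) and SERAC1. All 4 had every KO library below every WT library.

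Another 7 members stayed near 0, with log2 fold changes of -0.04 to 0.06 and no call. These were SERAC1, RGS17 (a GTPase activator of Gi-type proteins), SASH1, SYNE1 (the giant nuclear envelope protein nesprin-1), LRP11, DYNLT1 (a dynein light chain) and PPP1R14C (an inhibitor of protein phosphatase 1). RGS17 measured 17.2, 18.3 and 18.4 CPM in KO against 18.3, 19.0 and 17.4 CPM in WT, and the groups overlapped. The 3 other members not called, PEX3, LTV1 (a factor of small ribosomal subunit assembly) and TFB1M (a mitochondrial ribosomal RNA methyltransferase), had values of 0.13 to 0.14.

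**Figure D4:**
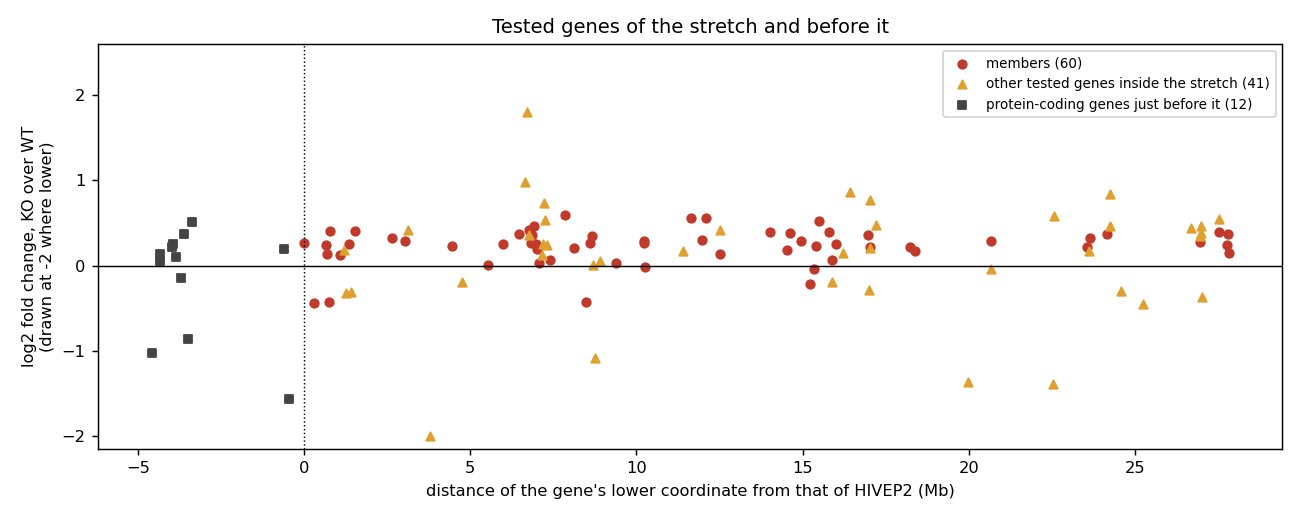
Log2 fold change, KO over WT, of the 60 members (circles), the 41 other tested genes inside the stretch (triangles) and the 12 tested protein-coding genes just before it (squares), by distance in Mb from HIVEP2, with the value of RAB32, below -2, drawn at -2. Members lie between -0.44 and 0.59. Of the other genes inside the stretch, the 17 at or above the level of the lowest member (6.37 CPM) lie between -0.29 and 0.58. The 24 below that level lie between -6.12 and 1.81. The 12 genes before the stretch lie between -1.57 and 0.51.

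Inside the same 27.8 Mb, 41 further genes with a known position were tested that are not members. Of these, 19 (46.3%) were called higher and 5 (12.2%) lower, beside 14.0% and 17.7% of all genes tested. Their median log2 fold change was 0.21. The 17 of these genes at or above the level of the lowest member (6.37 CPM over both groups) had a median of 0.34, with 13 called higher and 1 lower. Of tested genes not placed on chromosome 6 and at or above that level, 16.2% were called higher and 20.2% lower. The other 24 had a median of 0.09, with 6 higher and 4 lower. The stretch was picked for its shared rise, so nothing is read from these counts. RAB32, a small GTPase of organelle traffic singled out after its values were seen, was at 0.0291, 0.0543 and 0.0303 CPM in KO libraries, each at or under the level of 3 counts, against 2.96, 2.67 and 3.07 CPM in WT libraries. Just before the stretch, of 12 protein-coding genes 4 were called higher and 3 lower, with a median of 0.12. The 3 nearest to it were CITED2, a transcriptional coregulator (log2 fold change 0.51), VTA1, an endosomal sorting factor (0.20), and ADGRG6, an adhesion receptor (-1.57). VTA1 lost its call without KO replicate 3 or WT replicate 2. Over the 651 tested genes of chromosome 6 before the stretch the median was -0.02, with 113 higher and 139 lower.

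By role, the members of transcription and chromatin were the most even. All 8 were called higher, with log2 fold changes of 0.23 to 0.40 and a median of 0.29. PHF10, a subunit of the PBAF chromatin remodeller, measured 237, 238 and 242 CPM in KO libraries against 209, 192 and 191 CPM in WT libraries (0.27, SE 0.04). TBP measured 58.1, 59.9 and 56.1 CPM in KO against 44.0, 46.0 and 45.1 CPM in WT (0.37, SE 0.05). ARID1B, a subunit of the BAF remodeller, had 0.39, the nuclear receptor coactivator FAM120B 0.40 and SCAF8, which binds the tail of RNA polymerase II, 0.30.

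Of 8 members of RNA processing and ribosome assembly, 7 were called higher, with a median of 0.27. QKI, an RNA-binding regulator of splicing, measured 267, 284 and 278 CPM in KO against 241, 216 and 222 CPM in WT (0.29, SE 0.05). The log2 fold change was 0.35 for WTAP, a subunit of the m6A methyltransferase complex, and 0.37 for the lysosomal ribonuclease RNASET2. SF3B5, a small subunit of the SF3b splicing complex, measured 182, 175 and 197 CPM in KO against 134, 154 and 176 CPM in WT, and was the single member called higher whose groups overlapped.

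All 6 members of protein folding, repair and turnover were called higher, with a median of 0.25. TCP1 had the highest CPM of all members, at 815, 823 and 814 CPM in KO against 718, 694 and 702 CPM in WT (0.21, SE 0.03). Levels were also taken per kb of exon, with all annotated exons of a gene joined. Joined exons can be longer than the transcript expressed, so this compares genes only roughly. SF3B5 came first at 266 CPM per kb in KO and 223 in WT, then TCP1 at 166 in KO and 143 in WT and PSMB1 at 138 in KO and 117 in WT. EPM2A, the glycogen phosphatase laforin, and SYNE1 were lowest, at 0.526 and 0.433 CPM per kb in KO and 0.420 and 0.424 in WT. Their joined exons were long, at 18617 and 46064 bases. FBXO5, the EMI1 inhibitor of the anaphase-promoting complex, had a log2 fold change of 0.26.

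Among 11 signalling members, 7 were called higher and 1 lower, with the widest range, from AKAP12 at -0.43 to PLEKHG1. TAB2, an adaptor of the kinase TAK1, had 0.38, the ribosomal S6 kinase gene RPS6KA2 0.32 and the stress kinase MAP3K4 0.21. Of 7 members of the cytoskeleton and nuclear envelope, 5 were called higher and 0 lower. EZR, which links actin to the plasma membrane, measured 197, 196 and 200.4 CPM in KO against 155, 171 and 172 CPM in WT (0.25, SE 0.05), while UTRN had 0.40 and the microtubule-severing protein gene KATNA1 0.35.

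Of 11 members of membrane traffic and lipids, 7 were called higher and 2 lower. TMEM181 measured 117, 121 and 118 CPM in KO against 95.7, 88.6 and 86.9 CPM in WT (0.39, SE 0.05). The 6 mitochondrial and peroxisomal members had the lowest median of the larger groups, 0.20, with 4 called higher and 0 lower. MTHFD1L measured 169.7, 181 and 174 CPM in KO against 148, 154 and 151 CPM in WT (0.21, SE 0.04). Of the 3 carbohydrate enzymes, EPM2A (0.33) and the sulfotransferase gene UST (0.25) were called higher and FUCA2 lower.

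The head-to-head pairs differed in how closely their partners moved. GTF2H5 measured 69.8, 70.8 and 75.2 CPM in KO against 61.9, 59.5 and 63.2 CPM in WT, a log2 fold change of 0.23 (SE 0.05). SERAC1, on the other side of the gap printed above, measured 35.2, 32.6 and 33.9 CPM in KO against 35.3, 34.3 and 35.0 CPM in WT (-0.04, SE 0.05). The ratio of GTF2H5 to SERAC1 was 1.99, 2.17 and 2.22 in KO and 1.75, 1.74 and 1.80 in WT, with no overlap. ADAT2 measured 85.6, 86.0 and 77.7 CPM in KO against 73.6, 75.6 and 62.5 CPM in WT, and PEX3 45.3, 45.6 and 44.1 CPM in KO against 43.0, 39.1 and 40.6 CPM in WT. Their ratio overlapped between groups (1.76 to 1.89 in KO and 1.54 to 1.93 in WT).

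NUP43, a subunit of the Nup107 nuclear pore complex, measured 181, 184 and 186 CPM in KO against 159, 153 and 149 CPM in WT (0.26, SE 0.04). PCMT1, which repairs damaged aspartyl residues of proteins, measured 208, 201 and 215 CPM in KO against 188, 177 and 179 CPM in WT (0.20, SE 0.04). Their exons overlap by 223 bases on opposite strands, and since the strand setting of the counting is not given, reads there may not have been told apart, although the kit marks strand. This applies in some degree to 25 of the 60 members. PSMB1 measured 309.9, 304 and 319 CPM in KO against 265, 256 and 269 CPM in WT (0.24, SE 0.04) and starts 961 bases from TBP. The ratio of PSMB1 to TBP overlapped between groups (5.08 to 5.68 in KO and 5.56 to 6.02 in WT).

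Members also had head-to-head partners outside the list. RMND1, a mitochondrial translation factor, had a log2 fold change of 0.35 (SE 0.05), whereas ARMT1, which starts 77 bases away, had 0.01 (SE 0.07). The ratio of RMND1 to ARMT1 was 0.581 to 0.663 in KO and 0.471 to 0.540 in WT, without overlap. TCP1 and the mitochondrial ribosomal protein gene MRPL18, 63 bases apart, had 0.21 each, and their ratio was 6.49 ± 0.118 in KO and 6.48 ± 0.194 in WT (SD, n = 3 each).

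Several members encode subunits of complexes whose other subunits are encoded elsewhere, and these partners were not part of the choice of members. Of 98 partners in 9 complexes or pathways, 13 were called higher and 25 lower, 13.3% and 25.5% beside 14.0% and 17.7% of all genes tested, with a median log2 fold change of -0.01. Without KO replicate 1, 13 partners were called lower, and without KO replicate 2, 14.

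**Figure D5:**
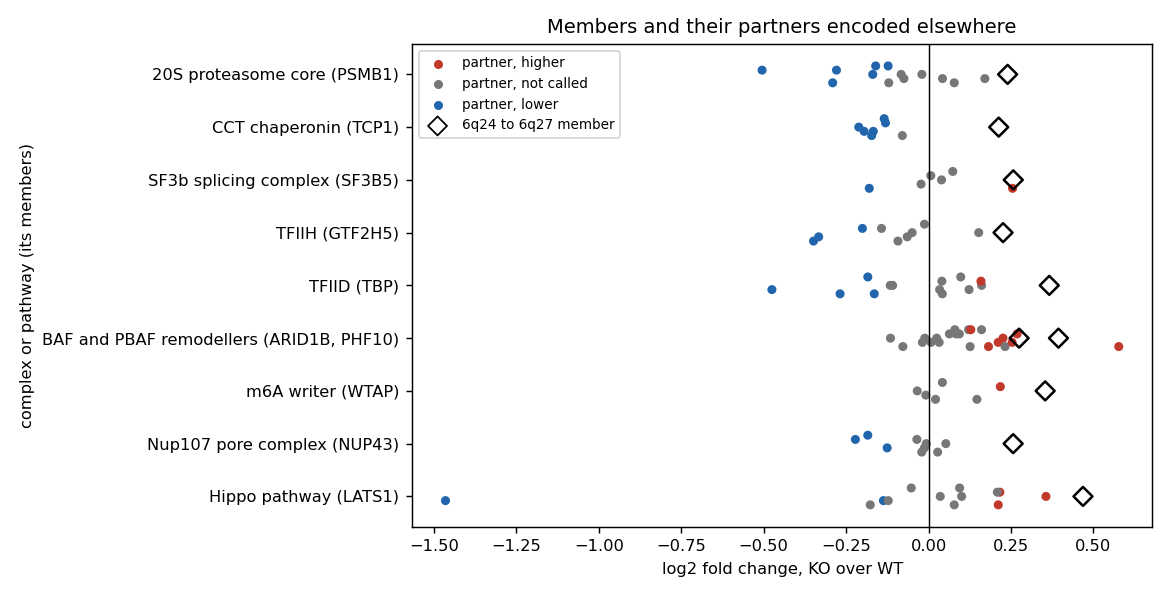
Log2 fold change, KO over WT, of the partners of each complex or pathway (dots, coloured by call) and of the 6q24 to 6q27 members that belong to it (open diamonds). In 8 of the 9 lists the member lies above every partner, and in the BAF and PBAF list SMARCE1 lies above both members. In the SF3b list the gap is very small, with SF3B5 at 0.257 and PHF5A at 0.255. The members were picked for their rise in this contrast and the partners were not, so nothing is read from this order.

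TCP1 belongs to the CCT chaperonin, the ring that folds actin and tubulin. Of its 7 partners, 6 fell, 0 rose and 1 was not called, and all 7 had a log2 fold change below 0, under every alternative tried too, with a median of -0.17. CCT4 fell to 541 ± 9.57 CPM in KO, against 627 ± 16.01 CPM in WT (SD, n = 3; log2 fold change -0.21, SE 0.04, edgeR adjusted p = 0.00135). TCP1 made up 14.9%, 14.9% and 14.4% of the summed CPM of the complex in KO libraries and 11.8%, 11.9% and 11.8% in WT libraries. The number of CCT partners called lower was 2 without KO replicate 1 and 3 at an adjusted p under 0.01 in edgeR.

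PSMB1 belongs to the 20S proteasome core, a barrel that degrades proteins. Of 13 other subunits 6 fell, 0 rose and 7 were not called, with a median of -0.12. PSMA4 fell to 294 ± 13.6 CPM in KO, against 417 ± 20.9 CPM in WT (log2 fold change -0.50, SE 0.05, edgeR adjusted p = 2.1e-05). PSMB1 made up 12.3%, 12.02% and 12.2% of the summed CPM in KO libraries and 9.67%, 9.25% and 9.43% in WT libraries. Without KO replicate 1, and likewise without KO replicate 2, 3 subunits were called lower.

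For TFIIH, 3 of 9 partners of GTF2H5 fell and 0 rose, with a median of -0.09 (1 rose without WT replicate 3). The partner GTF2H4 was at only 0.212 to 0.462 CPM over all libraries, and its SE of 0.35 left its change poorly measured. CCNH, the cyclin of the TFIIH kinase module, fell to 41.6 ± 0.980 CPM in KO, against 53.0 ± 1.08 CPM in WT (-0.35, SE 0.05, edgeR adjusted p = 0.000309). For TFIID, the factor built around TBP, 4 of 13 partners fell and 1 rose. TAF3 fell by 0.48 on the log2 scale, on chromosome 10 beside a median of -0.60 over the 20 nearest expressed genes on each side, and TAF5 rose by 0.16 (edgeR adjusted p = 0.0271), a call lost in 8 of 15 alternatives. Without KO replicate 2 or without KO replicate 3, 2 TFIID partners were called lower. Of 9 partners of NUP43, 3 fell and 0 rose, and SEH1L fell by 0.22 (edgeR adjusted p = 0.0093). Without KO replicate 1, KO replicate 2 or WT replicate 2, 1 was called lower, and without WT replicate 1, 1 was called higher.

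ARID1B and PHF10 belong to the BAF and PBAF remodellers, the human SWI/SNF complexes. Of 22 partners 7 rose and 0 fell, with a median of 0.11. At an adjusted p under 0.01 in edgeR, 4 of these calls held, and those of SMARCA4, BRD9 and DPF2 were lost. SMARCE1 rose to 20.1 ± 0.601 CPM in KO, against 13.5 ± 0.530 CPM in WT (0.58, SE 0.07, edgeR adjusted p = 7.11e-05). The catalytic ATPase SMARCA4 and the subunits ARID1A, PBRM1, SMARCC1, BRD9 and DPF2 also rose, with log2 fold changes of 0.13 to 0.27. These 7 genes lie on chromosomes other than 6. Over the 20 nearest expressed genes on each side, the median was 0.15 for PBRM1, 0.12 for SMARCC1 and 0.11 for SMARCE1. It was 0.06 for DPF2, 0.02 for SMARCA4, 0.005 for BRD9 and 0.002 for ARID1A. Whether the surroundings bear on these rises was not tested.

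Of 6 partners of SF3B5, PHF5A rose by 0.25 (edgeR adjusted p = 0.000798), on chromosome 22 beside a neighbour median of 0.34, and SF3B6 fell by 0.18 (adjusted p = 0.0313), a call lost without KO replicate 1, KO replicate 2, WT replicate 1 or WT replicate 3. Of 6 partners of WTAP, RBM15 rose by 0.22 (edgeR adjusted p = 0.00517) and 0 fell, while without WT replicate 1, 3 rose. Under RLE scaling, or with a filter of at least 1 CPM in at least 3 libraries, 2 rose. Around LATS1 in the Hippo pathway, 3 of 13 partners rose and 2 fell. The effector YAP1 rose to 60.4 ± 2.51 CPM in KO, against 47.2 ± 2.16 CPM in WT (0.36, SE 0.05, edgeR adjusted p = 0.000598). Its paralog WWTR1 (TAZ) fell to 8.83 ± 0.256 CPM in KO, against 24.4 ± 2.16 CPM in WT (-1.47, SE 0.08, edgeR adjusted p = 3.76e-07). WWTR1 is on chromosome 3, beside a neighbour median of -0.51, and near the targeted gene HLTF. It lies at chr3:149517235-149736714, and HLTF at chr3:149030127-149086554. Whether this position bears on the fall of WWTR1 was not tested. The Hippo partners called lower numbered 1 without any single library other than WT replicate 3, and those called higher numbered 6 without WT replicate 1. With all libraries kept, 1 was called lower under RLE scaling, DESeq2, limma-voom, the replicate block or a filter of at least 1 CPM in at least 3 libraries.

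The share of a member in the summed CPM of its list was higher in every KO library than in every WT library for 7 further members. LATS1 made up 16.9%, 17.1% and 16.4% of its Hippo list in KO libraries and 12.7% in each WT library. WTAP made up 21.7% to 21.8% of the m6A list in KO and 17.97% to 18.7% in WT, and TBP 7.75% to 8.19% of the TFIID list in KO and 5.69% to 6.16% in WT. GTF2H5 made up 13.0% to 13.6% of the TFIIH list in KO and 10.5% to 11.2% in WT. NUP43 made up 11.1% of its pore complex in each KO library and 9.13% to 9.41% in WT libraries, and ARID1B 3.67% to 3.85% of the BAF and PBAF list in KO and 3.06% to 3.18% in WT. PHF10 made up 7.80% to 8.09% of the same list in KO and 6.89% to 7.70% in WT, a narrow separation. For SF3B5 the shares overlapped, at 7.20% to 8.13% in KO and 5.62% to 7.30% in WT. These shares use the members' own values and are given as a description.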

How the data were processed

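RNA was measured by poly(A)-selected, stranded, paired-end RNA-seq in 6 libraries, 3 SMARCA3 knockout and 3 wild-type. The authors deposited raw read counts per gene. Per the submitters' processing notes, Trim Galore, STAR 2.4, Picard, HTSeq 0.9.1, DESeq2 and hg38 were used, with no role or order given. How the counting treated strand, and which annotation release it used, is not given in the sources used here. Genes were filtered with filterByExpr, scaled by TMM and tested with edgeR 4.0.16 (quasi-likelihood F test, R 4.3.3) over all 18061 genes, with Benjamini-Hochberg adjustment and a threshold of 0.05. Alternatives used limma 3.58.1 and DESeq2 1.42.0. The fit was tested on simulated data whose changes were larger than those of any member, so recovery of changes of the members' size was not tested. Errors are SDs of 3 libraries or the SE of the fitted log2 fold change. In single libraries 3 counts correspond to 0.0723 to 0.0909 CPM, which covers counting error only.

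Leaving out each library, other scalings, filters and tools, a replicate block and a stricter threshold were tried. Positions came from GENCODE v29 (GRCh38), matched by symbol for 14050 tested genes (77.8%), and promoters from RefSeq (GRCh38.p14). The members, gene lists and tests were chosen with earlier results of these data known. Values in every library are given for the 6 highest and 6 lowest members, those called lower, the most abundant member of each role and those of head-to-head member pairs. Among partners, the called gene with the smallest p in each direction is named for each list; BRD9, DPF2 and the other BAF and PBAF genes were added after their values were seen. No libraries agreed within sampling noise: the chi-square per degree of freedom between replicates was 3.60 to 15.3. Same-numbered libraries did not deviate together (correlations -0.23, -0.01 and -0.05), so the numbers were not taken as pairs.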

Additional observations from a re-analysis of the deposited data

How the results depend on the processing

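Over 15 alternatives (other scaling, filters and tools, a block, a stricter threshold and leaving out each library), 53 members had a positive log2 fold change in all and 5 a negative one in all, while SASH1 (-0.05 to 0.05) and RGS17 (-0.05 to 0.02) changed sign. The members called higher numbered 36 to 49 and their median log2 fold change was 0.25 to 0.30. Leaving out 1 library gave 39 to 49 members higher, 3 to 4 lower, and, of the partners, 10 to 19 higher and 13 to 21 lower. At an adjusted p under 0.01, 3477 genes were called, 1421 higher and 2056 lower, with 8 partners higher and 14 lower. With the replicate number as a block, 8 partners were called higher, against 13 without it, and 18 lower, with 4 of the 22 BAF and PBAF partners higher, against 7 without it, and with 42 members higher and 3 lower. The samples share only a number, so no pairing is read from this. The cause of these differences was not tested. For the lowest member, PLEKHG1, the smallest count in a library was 178.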
